A study of Arabidopsis thaliana with 6 samples.

Results

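Cysteine-rich receptor kinases (CRKs) are a large plant family of membrane proteins. The 40 genes described here were chosen by locus identifier, as rows of a table of 32678 genes. They comprised 39 genes with a CRK number and ARCK1 (AT4G11890), a receptor-like cytosolic kinase of the same family. They were measured by RNA sequencing of polyadenylated RNA from Arabidopsis leaves, in 3 libraries of the wild type Col-0 and 3 of a line in the Col-0 background that overexpresses the immune receptor gene RPS4 (genotype label Col-0 35S:RPS4-HS, here 35S:RPS4). The 35S promoter comes from a plant virus and is active in most plant cells, so RPS4 was not expressed in its native pattern. Plants of both groups were 3.5 weeks old, had been kept at 28 °C and were sampled 2 h after a move to 19 °C, so the move was common to both and the comparison is of genotypes after it. The comparison asks which family members differ in transcript level between the genotypes at this time, and whether the answer follows their place in the genome. No library came from before the move, so a standing difference between the lines cannot be told apart from one that followed it. A member is said to rise where it was higher in 35S:RPS4 than in Col-0.

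A typical CRK carries a pair of extracellular domains with conserved cysteines (DUF26 domains), a membrane-spanning helix and an intracellular serine/threonine kinase. The family is known for its work in pattern-triggered immunity, in oxidative signalling outside the cell and in the control of cell death, and several members are known to be induced by pathogens, salicylic acid or ozone. RPS4 is an intracellular receptor of the TIR-NB-LRR class whose signalling is known to be held back at high temperature, and the transfer to the lower temperature releases it.

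Most of the family is physically clustered, which is what makes position a question. Of the 40 members, 36 lay on chromosome 4. Members no more than 50 kb apart were taken as an array. The largest array ran from CRK5 to CRK24 (TAIR10.1, chr4:12117491-12191704) and held 19 members in 74.2 kb, 8 on the plus and 11 on the minus strand. Another array, CRK36 to CRK40, held 5 members in 61.2 kb (chr4:2231717-2292965), and the CRK30 to CRK34 array held 5 in 26.3 kb (chr4:6963521-6989793). CRK2 and CRK3 on chromosome 1 and CRK28 and CRK29 on chromosome 4 were neighbours in pairs, and 7 members stood alone.

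The promoter sequences of 8 members are shown as a description, and no result below rests on them. CRK39, CRK20, CRK36 and CRK11 had the largest differences between the genotypes among members with at least 4 CPM (counts per 1000000 gene counts, after scaling of library sizes) in 35S:RPS4. CRK40 and CRK19 are the members closest in coding sequence to CRK39 and CRK20. CRK18 and CRK21 are the members of the largest array with the smallest log2 fold change in size among those with at least 4 CPM in Col-0. The minimum of 4 CPM and the pairing by closest sequence were chosen after the values were seen. Each run is the 250 bases before the annotated transcript start in the RefSeq annotation of TAIR10.1, 5′ to 3′ on the strand of the gene. Capitals mark 3 short motifs wherever they occur on either strand: TTGAC, the core of the W-box that WRKY transcription factors bind (GTCAA on the other strand), and CGCG and CGTG (CACG on the other strand), cores that calmodulin-binding CAMTA factors bind. They are, in that order, from chr4:2259248-2259497 (plus strand), chr4:12174483-12174732 (plus), chr4:2234690-2234939 (minus), chr4:12143859-12144108 (minus), chr4:2288366-2288615 (plus), chr4:12170705-12170954 (plus), chr4:12170081-12170330 (minus) and chr4:12180937-12181186 (minus).
CRK39: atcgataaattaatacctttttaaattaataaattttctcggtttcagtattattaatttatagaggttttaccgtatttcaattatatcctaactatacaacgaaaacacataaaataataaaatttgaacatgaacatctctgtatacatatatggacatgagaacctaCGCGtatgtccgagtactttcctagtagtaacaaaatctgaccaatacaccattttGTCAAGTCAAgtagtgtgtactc
CRK20: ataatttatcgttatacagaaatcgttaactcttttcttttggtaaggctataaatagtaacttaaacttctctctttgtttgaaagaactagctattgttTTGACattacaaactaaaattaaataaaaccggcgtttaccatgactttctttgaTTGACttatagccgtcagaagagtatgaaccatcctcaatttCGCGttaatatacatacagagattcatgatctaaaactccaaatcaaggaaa
CRK36: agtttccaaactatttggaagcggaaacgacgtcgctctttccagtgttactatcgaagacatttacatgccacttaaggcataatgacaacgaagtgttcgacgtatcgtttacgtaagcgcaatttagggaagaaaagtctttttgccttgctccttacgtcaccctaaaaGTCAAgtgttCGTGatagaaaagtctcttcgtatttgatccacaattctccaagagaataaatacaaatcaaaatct
CRK11: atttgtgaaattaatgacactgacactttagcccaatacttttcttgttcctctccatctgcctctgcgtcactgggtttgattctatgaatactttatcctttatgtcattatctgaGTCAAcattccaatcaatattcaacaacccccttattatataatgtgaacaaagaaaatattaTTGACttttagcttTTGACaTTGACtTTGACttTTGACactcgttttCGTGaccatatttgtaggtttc
CRK40: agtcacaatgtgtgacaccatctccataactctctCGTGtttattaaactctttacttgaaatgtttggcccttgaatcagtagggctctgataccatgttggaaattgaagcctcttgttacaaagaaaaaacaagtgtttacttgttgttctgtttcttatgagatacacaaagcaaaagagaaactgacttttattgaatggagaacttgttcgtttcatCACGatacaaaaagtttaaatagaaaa
CRK19: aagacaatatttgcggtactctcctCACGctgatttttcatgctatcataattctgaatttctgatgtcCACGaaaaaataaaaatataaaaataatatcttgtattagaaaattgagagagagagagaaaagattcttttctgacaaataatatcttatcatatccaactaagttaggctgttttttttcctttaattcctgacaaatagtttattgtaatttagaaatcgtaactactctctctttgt
CRK18: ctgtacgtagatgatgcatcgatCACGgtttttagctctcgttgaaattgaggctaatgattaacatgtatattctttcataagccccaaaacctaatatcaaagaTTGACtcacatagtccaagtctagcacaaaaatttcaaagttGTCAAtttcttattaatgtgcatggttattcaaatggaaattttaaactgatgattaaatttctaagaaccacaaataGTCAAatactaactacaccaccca
CRK21: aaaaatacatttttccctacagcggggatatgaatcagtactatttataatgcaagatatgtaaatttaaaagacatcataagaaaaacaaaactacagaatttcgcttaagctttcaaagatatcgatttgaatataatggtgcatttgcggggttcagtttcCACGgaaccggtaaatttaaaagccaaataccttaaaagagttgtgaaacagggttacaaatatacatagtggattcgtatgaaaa
The CRK11 window held 6 TTGAC cores, of which 5 lay within the last 69 bases before the start. CRK39 and CRK20 each held 2 TTGAC cores and 1 CGCG, whereas their closest relatives CRK40 and CRK19 each held 0 TTGAC and 2 CGTG. CRK18 nevertheless held 3 TTGAC cores, and CRK21 held 0. The CRK40 window overlapped another annotated gene, AT4G04560. A match of this kind is a description of letters and not a binding site.

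Sequencing depth was even, with 28659022 to 31007551 counts in genes per library. RPS4 itself, the overexpressed gene, had 668, 884 and 978 counts in the 3 Col-0 libraries and 18033, 22372 and 24807 in the 35S:RPS4 libraries, so every library matched its label (log2FC 4.81, SE 0.22, FDR 3.25e-05). Markers of leaf mesophyll were abundant and level between the groups, with 15530 and 16740 CPM for the Rubisco subunit gene RBCS1A, and none of the 10 tested markers of mesophyll, guard cells, epidermis and phloem was called. The 4 markers of root hairs and seed storage were at or near 0, between 0 and 0.021 CPM on average. In whole leaves, fewer cells of a type and less RNA per cell cannot be told apart.

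The summed transcript level of the family, which follows its abundant members most, was higher in 35S:RPS4. Over the 40 members it was 436, 569 and 551 CPM in Col-0 and 921, 1346 and 1487 CPM in 35S:RPS4. The groups did not overlap, and the means of 519 ± 72.4 and 1251 ± 294 CPM (SD, n = 3) differed 2.41-fold. Of the 40 members, 38 had a count in some library and 31 passed the filter on low counts and were tested. A member counts as raised or lowered at an FDR (Benjamini-Hochberg adjusted p over all genes tested, edgeR) below 0.01 and a log2 fold change (log2FC, 35S:RPS4 over Col-0) beyond 1 in size. By this rule 14 members were raised and 0 were lowered. Among all 18382 genes tested, 6.46% were raised and 1.37% lowered (7.83% called in either direction), against 45.2% of the 31 tested members raised. The median log2FC of the tested members was 1.55 (range -0.91 to the fitted 11.47 of CRK39), beside 0.005 for all genes. It was above 0 for 25 tested members and below 0 for 6. Some members, such as CRK39, CRK36, CRK20, CRK13 and CRK23, reached the filter only through their counts in 35S:RPS4. The shares given here therefore describe the tested members and not the family. Every 35S:RPS4 library lay above every Col-0 library for 22 tested members, where 17.9% of all tested genes did so. The reverse held for 2 members, where 16.3% of all tested genes did so, and 7 members overlapped.

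The count of raised members depended on which library was left out. Dropping a Col-0 library left 11 raised members for replicate 1, 6 for replicate 2 and 4 for replicate 3. Dropping a 35S:RPS4 library gave 19 for replicate 1, 6 for replicate 2 and 7 for replicate 3. The low-count filter was run anew in each of these fits, so members untested in the main fit could be tested and called there. Over all genes, the number raised moved too, from 1188 of 18382 tested. It was 1037, 865 and 841 without Col-0 replicates 1, 2 and 3. Without 35S:RPS4 replicates 1, 2 and 3 it was 1374, 860 and 929, with 18552 to 18629 genes tested in these fits. ARCK1, CRK11, CRK12 and CRK39 were raised in all 14 alternative fits of scaling, tool, filter, block and libraries. The other 10 raised members fell short of the threshold in at least 1 of these fits, with a log2FC above 0 in each.

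**Figure D1:**
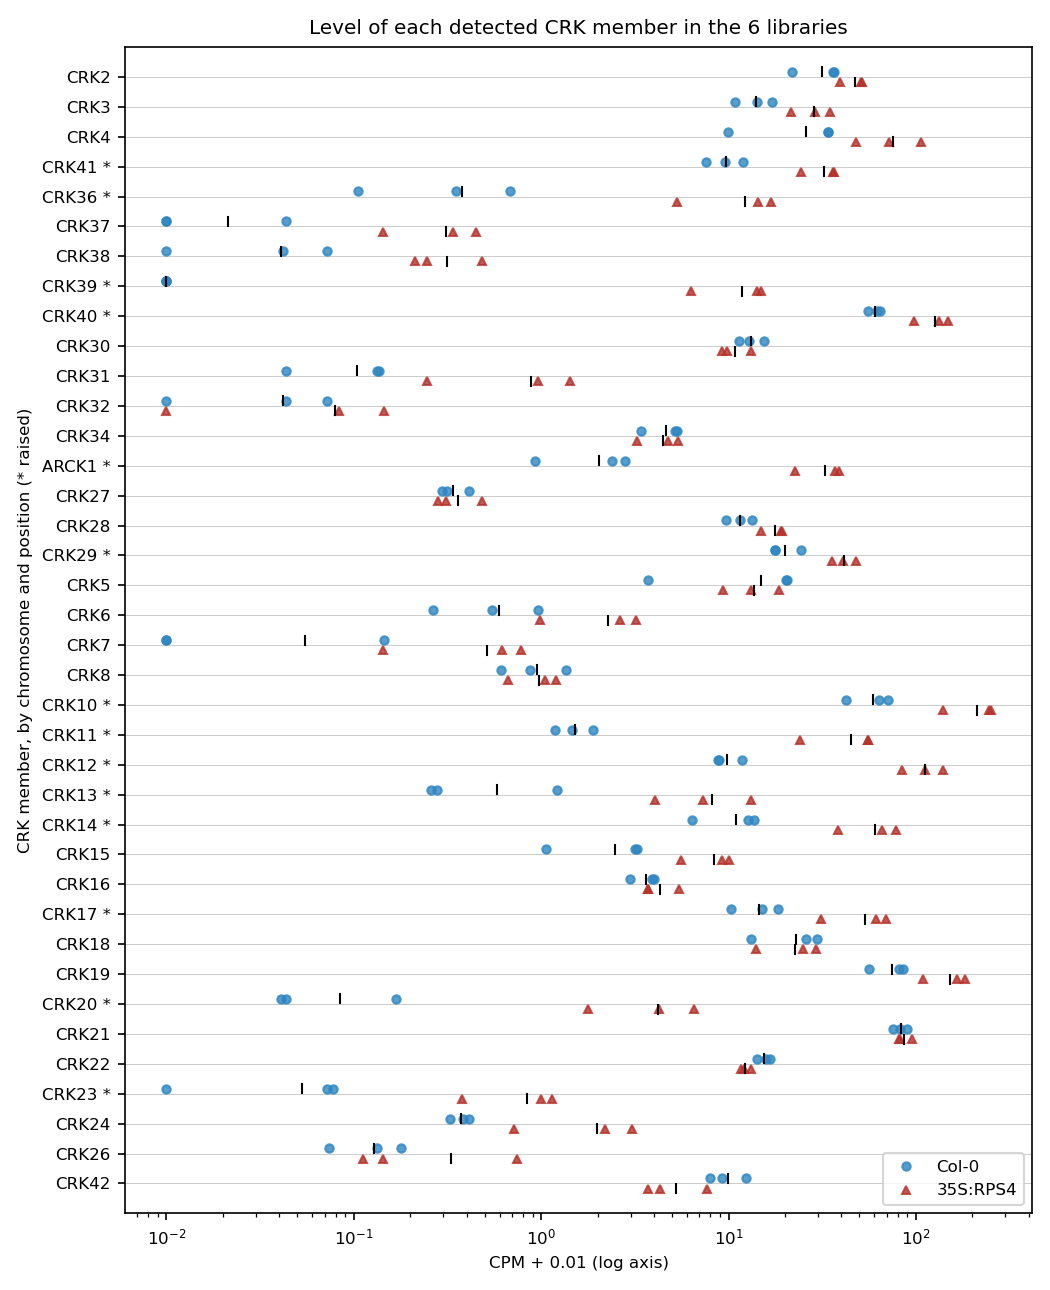
Level of the 38 CRK members with a count, as CPM plus 0.01 on a log axis, in the 3 Col-0 libraries (blue circles) and the 3 35S:RPS4 libraries (red triangles), with group means as black bars and raised members starred. The starred members lie to the right in 35S:RPS4, from CRK40 at 60.5 and 126 CPM on average to CRK39 at 0 and 11.8 CPM.

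CRK39 (AT4G04540) showed the most complete contrast of the family. It had 0 counts in each Col-0 library and 188, 441 and 387 counts in the 35S:RPS4 libraries. A count of 0 over the group allows up to 3 counts, against which the level in 35S:RPS4 was at least 366-fold higher (FDR 0.00165). Its fitted log2FC of 11.47 (SE 0.95) depends on the prior count and is not a bound.

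Its array neighbour CRK40 (AT4G04570) behaved differently in size. CRK40 had 1756, 1831 and 2078 counts in Col-0 and 2907, 3903 and 4071 in 35S:RPS4. It was thus well expressed in the wild type and rose by a log2FC of 1.06 (SE 0.15, FDR 0.00299). It lay near the fold threshold and passed neither with upper-quartile scaling (0.88) nor with plain library size (0.89), and it missed the call in all fits without 1 library except that without 35S:RPS4 replicate 1 (log2FC 0.93 to 1.21 over these fits). The coding sequences of CRK39 and CRK40 were identical at 86.7% of the bases of the shorter, the second closest pair among all 780 pairs of members.

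CRK36 (AT4G04490), at the other end of the same array, is known to interact with ARCK1 in restraining abscisic acid responses and to associate with BIK1 in immunity. It had 3, 20 and 11 counts in Col-0 and 158, 423 and 463 in 35S:RPS4. The groups did not overlap, and CRK36 rose by a log2FC of 5.05 (SE 0.65, FDR 0.00214), although it missed the call with limma voom (FDR 0.0322), without the low-count filter (0.0115), without Col-0 replicate 3 (0.0145) and without 35S:RPS4 replicate 2 (0.0109).

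ARCK1, the known partner of CRK36, lies elsewhere on chromosome 4 (start 7147865) and rose as well. It had 29, 71 and 90 counts in Col-0 and 672, 1088 and 1057 in 35S:RPS4, with a log2FC of 4.01 (SE 0.39, FDR 0.000615). Its protein lacks the extracellular domains, and its coding sequence of 1065 bases was the shortest of the family.

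The remaining members of the CRK36 to CRK40 array, CRK37 and CRK38, were too low to be tested. CRK37 had 0, 1 and 0 counts in Col-0 and 4, 13 and 9 in 35S:RPS4, a ratio of library-size-scaled sums of 28.1 with a counting interval from 4.62 to 1152 (95%, exact). CRK38 had 1, 0 and 2 counts in Col-0 and 6, 7 and 13 in 35S:RPS4, a ratio of 9.36 (2.87 to 48.3). In both the 35S:RPS4 libraries lay above every Col-0 library, at levels under 0.5 CPM. All 3 tested members of this array were raised, but CRK39 and CRK36 reached the filter only through their counts in 35S:RPS4. For them, being tested and being higher in 35S:RPS4 were thus not independent. The 2 untested members were higher in 35S:RPS4 by counts alone.

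The largest array was mixed. Of its 19 members 18 were tested and 8 were raised, with a median log2FC of 1.87 (range -0.34 to 5.72). Outside the array, 13 of 21 members were tested and 6 were raised, with a median of 1.06. The share of tested members raised was 44.4% inside and 46.2% outside, and no test of this difference was made. Both shares carry the limit of the low-count filter given above. Strand did not separate the calls, since 3 of 7 tested members on the plus strand and 5 of 11 on the minus strand were raised. Dropping a Col-0 library left 6, 2 and 2 raised array members for replicates 1, 2 and 3, and dropping a 35S:RPS4 library gave 11, 2 and 3.

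**Figure D2:**
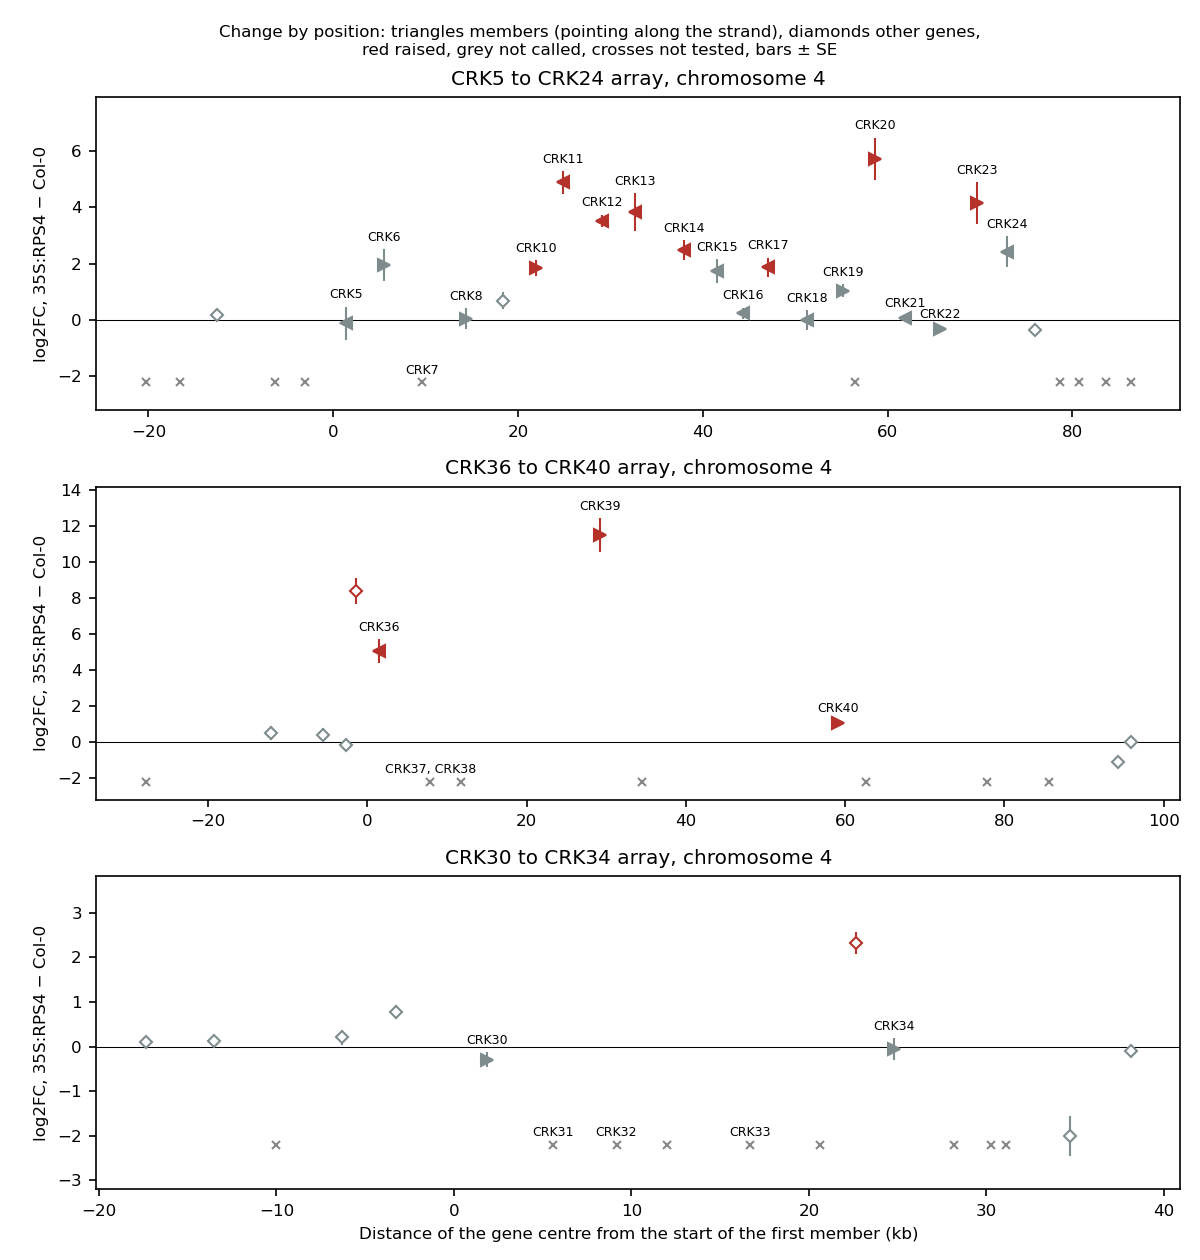
Log2FC (35S:RPS4 minus Col-0, bars ± SE) against distance from the start of the first member in kb, for the 3 CRK arrays on chromosome 4 and their flanking genes. Raised members (red triangles) form a run from CRK10 to CRK14 in the largest array, while CRK20 at 5.72 stands beside CRK19 at 1.03 and CRK21 at 0.06.

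Raised members formed a run of 5 genes in its first part. CRK10 to CRK14, in 18.9 kb from 12137995 to 12156881, were all raised. CRK10 (AT4G23180) was the most abundant of them, with 1335, 2095 and 2056 counts in Col-0 and 4177, 7270 and 6864 in 35S:RPS4. All 35S:RPS4 values were higher, and CRK10 rose by a log2FC of 1.85 (SE 0.28, FDR 0.00417). CRK11 (AT4G23190), which meets CRK10 tail to tail with an overlap of 32 bases, had 46, 35 and 61 counts in Col-0 and 718, 1631 and 1512 in 35S:RPS4. Its log2FC of 4.89 (SE 0.40, FDR 0.000295) was larger than that of CRK10 by 3.03.

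CRK12 (AT4G23200) had 370, 260 and 288 counts in Col-0 and 2513, 3287 and 3838 in 35S:RPS4. CRK12 had the smallest FDR of the family, with a log2FC of 3.51 (SE 0.22, FDR 0.000105). CRK13 (AT4G23210), whose overexpression is known to raise salicylic acid and resistance to Pseudomonas, had 38, 8 and 8 counts in Col-0 and 121, 390 and 200 in 35S:RPS4. The groups were apart, but Col-0 replicate 1 was the highest of its group and 35S:RPS4 replicate 1 the lowest. CRK13 passed at a log2FC of 3.82 (SE 0.68, FDR 0.00859) and did not with the replicate number as a block (3.72, FDR 0.0662). It also missed the call with limma voom, without the low-count filter and with replicate 2 or 3 of either genotype left out (FDR 0.0228 to 0.0371). CRK14 (AT4G23220) closed the run, with 202, 375 and 442 counts in Col-0 and 1145, 1945 and 2131 in 35S:RPS4 (log2FC 2.48, SE 0.36, FDR 0.00355). CRK10 and CRK14 missed the call in the same 5 fits, namely without the low-count filter and with replicate 2 or 3 of either genotype left out (FDR 0.0111 to 0.0203 for both genes).

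Further along, single raised members stood between uncalled ones. CRK17 (AT4G23250), also known as the embryo-lethal locus EMB1290, had 324, 448 and 597 counts in Col-0 and 930, 1796 and 1896 in 35S:RPS4 (log2FC 1.88, SE 0.34, FDR 0.00913). It only just passed and missed the call with limma voom, without the low-count filter and in every fit without 1 library except that without 35S:RPS4 replicate 1, with an FDR of up to 0.0393. Its gene model overlaps that of CRK16 by 1190 bases on the same strand, and CRK16 was not called (log2FC 0.23, SE 0.21). How reads in the shared stretch were counted is not stated. CRK18, the closest relative of CRK17 with 84.3% identical bases, had 415, 880 and 840 counts in Col-0 and 418, 739 and 799 in 35S:RPS4. The ranges of CRK18 nearly coincided (log2FC -0.01, SE 0.36, FDR 0.991).

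The sharpest contrast between neighbours was at CRK19, CRK20 and CRK21. Inducible expression of CRK19 and of CRK20 is known to cause cell death in leaves. CRK20 (AT4G23280) had 5, 1 and 1 counts in Col-0 and 53, 125 and 178 in 35S:RPS4, and it rose by a log2FC of 5.72 (SE 0.74, FDR 0.00208). It was close to silent in the wild type, and it missed the call with limma voom (FDR 0.0199) and when replicate 2 (0.0141) or replicate 3 (0.0140) of Col-0 or replicate 2 of 35S:RPS4 (0.0103) was left out. CRK19 (AT4G23270), 435 bases upstream in the same direction, had 1777, 2529 and 2638 counts in Col-0 and 3241, 4883 and 4970 in 35S:RPS4. The groups were apart, but CRK19 missed the FDR threshold (log2FC 1.03, SE 0.23, FDR 0.0231) and passed with the replicate block (1.02, FDR 8.78e-06). CRK21 (AT4G23290), which ends 157 bases from the end of CRK20, had 2844, 2454 and 2459 counts in Col-0 and 2831, 2398 and 2260 in 35S:RPS4. It had the smallest SE of the tested members, at a log2FC of 0.06 (SE 0.09), with a sign that turned under 2 other scalings (-0.12 with upper-quartile scaling and -0.11 with plain library size).

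CRK19 and CRK20 were also the closest pair of the family, with 89.6% identical bases, so in this pair near identity in coding sequence did not go with a like difference between genotypes. Of the 10 pairs above 80% identity, all in the same array or pair, 7 had both members tested. Among the differences in log2FC within these pairs were 0.20 for CRK6 and CRK15, 0.43 for CRK28 and CRK29 and 4.69 for CRK19 and CRK20. For CRK39 and CRK40 the difference was at least 7.45, taking CRK39 at its bound.

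**Figure D3:**
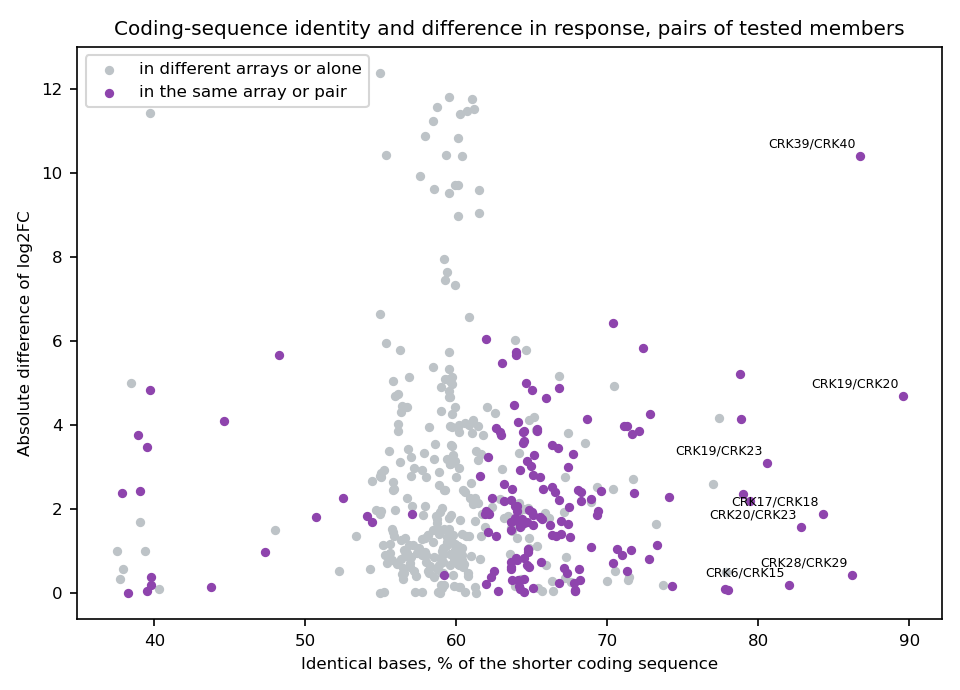
Absolute difference of log2FC between tested members of a pair against the percentage of identical bases in the shorter coding sequence, with pairs from the same array or neighbouring pair in purple and all others in grey. CRK19/CRK20 at 89.6% identity lies high at 4.69 and CRK39/CRK40 at 86.7% lies above 10 (all pairs with CRK39 are drawn at its fitted log2FC, which is not a bound), whereas CRK28/CRK29 at 86.2% lies at 0.43.

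The end of the array held CRK22, CRK23 and CRK24. CRK23 (AT4G23310) had 0, 2 and 2 counts in Col-0 and 11, 29 and 31 in 35S:RPS4, and passed at a log2FC of 4.14 (SE 0.75, FDR 0.00776). It missed the call with limma voom and in all fits without 1 library except that without 35S:RPS4 replicate 1 (FDR up to 0.0354). CRK24 had 10, 11 and 13 counts in Col-0 and 21, 64 and 83 in 35S:RPS4, with a log2FC of 2.42 (SE 0.55) but an FDR of 0.0215, and it passed with the replicate block (2.32, FDR 0.00248). CRK22 was lower in 35S:RPS4, with 525, 468 and 460 counts in Col-0 and 349, 387 and 331 in 35S:RPS4. Its groups were apart, with a log2FC of -0.34 (SE 0.10, FDR 0.0552) that was not called.

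At the start of the array no tested member was called. CRK5 (AT4G23130), known for cell death and stronger resistance when overexpressed, had 117, 609 and 655 counts in Col-0 and 277, 389 and 511 in 35S:RPS4. Col-0 replicate 1 was far below the other wild-type libraries, and the log2FC of -0.11 had an SE of 0.59. CRK6 and CRK7 are known to protect leaves against oxidative damage outside the cell. CRK6 had 8, 16 and 31 counts in Col-0 and 29, 77 and 88 in 35S:RPS4 (log2FC 1.94, SE 0.57, FDR 0.0629), and it passed with the replicate block (1.96, FDR 0.000865). CRK7 was not tested, with 4 counts in all 3 Col-0 libraries together and 43 in 35S:RPS4. CRK8 had a log2FC of 0.04 (SE 0.37), and CRK15, in the middle of the array, had 1.75 (SE 0.42, FDR 0.0308) and passed with the block (1.81, FDR 0.000178).

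Over the 16 neighbouring pairs of the array with both members tested, 4 pairs had both members raised, 4 had neither and 8 had 1 of each. The absolute difference in log2FC between neighbours had a median of 1.68, beside 1.95 for the 137 pairs of tested members that were not neighbours. These pairs share members and are given as a description.

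Genes inside and around the arrays that are not among the 40 members were mostly not called. Inside the largest array EP1 (AT4G23170), which encodes a kinase-related protein and lies between CRK8 and CRK10, had a log2FC of 0.68 (SE 0.30). The only tested genes among the 5 on each side had 0.20 and -0.35, and none was called. Next to CRK36, the F-box gene AT4G04480 was raised with a log2FC of 8.37 (SE 0.74), and it was the only one of 6 tested flanking genes of that array that was called. In the CRK30 to CRK34 array the tested members CRK30 (log2FC -0.29, SE 0.17) and CRK34 (-0.06, SE 0.24) were not called. AT4G11521, a gene for a kinase-related protein between CRK33 and CRK34, had 92, 131 and 156 counts in Col-0 and 444, 667 and 643 in 35S:RPS4. It was raised with a log2FC of 2.33 (SE 0.24, FDR 0.000776), so that in this array the called gene was not one of the 40 members. CRK31 was not tested but had 4, 1 and 4 counts in Col-0 and 7, 42 and 26 in 35S:RPS4, and CRK32 had 3 counts in Col-0 and 6 in 35S:RPS4 over 3 libraries each. CRK33 and CRK25 had 0 counts in all 6 libraries.

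Several members outside the 3 arrays are known from immune or oxidative signalling. CRK2 (AT1G70520), which is known to phosphorylate the oxidase RBOHD, had 692, 1085 and 1173 counts in Col-0 and 1179, 1511 and 1401 in 35S:RPS4. Every 35S:RPS4 value was higher, by little, and CRK2 was not called (log2FC 0.58, SE 0.21, FDR 0.122). Its neighbour CRK3 had a log2FC of 1.03 (SE 0.22) at an FDR of 0.0194 and passed with the replicate block (1.02, FDR 1.80e-05). CRK28 (AT4G21400), known to associate with the co-receptor BAK1, was not called either (log2FC 0.62, SE 0.15, FDR 0.0265). Its overlapping neighbour CRK29 (AT4G21410) had 765, 526 and 576 counts in Col-0 and 1211, 1051 and 1316 in 35S:RPS4, and rose by a log2FC of 1.06 (SE 0.16, FDR 0.00361). The call of CRK29 was lost with upper-quartile scaling (0.87) and plain library size (0.89), and in the fits that left out replicate 2 (0.98) or replicate 3 (0.98) of Col-0 or replicate 3 of 35S:RPS4 (0.94).

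CRK41 (AT4G00970) rose with little dependence on the fit. It had 238, 356 and 308 counts in Col-0 and 730, 1080 and 982 in 35S:RPS4 (log2FC 1.74, SE 0.22, FDR 0.00173), and it missed the call only without Col-0 replicate 3 (FDR 0.0123). CRK4 (AT3G45860), a member known to associate with the flagellin receptor FLS2 and to cause cell death when induced, had 314, 1001 and 1095 counts in Col-0 and 1436, 2129 and 2901 in 35S:RPS4. The spread within Col-0 was wide and CRK4 was not called (log2FC 1.55, SE 0.49, FDR 0.0813). CRK42 (AT5G40380) was the tested member with the most negative log2FC. It had 392, 236 and 299 counts in Col-0 and 229, 109 and 118 in 35S:RPS4, with a log2FC of -0.91 (SE 0.30, FDR 0.0914). It was called lowered without 35S:RPS4 replicate 1 (-1.31, FDR 0.00324). At an unadjusted p below 0.05, CRK22 and CRK42 were the 2 members lower in 35S:RPS4, and DESeq2 and limma voom also lowered 0 members. CRK26 and CRK27 were at 0.12 and 0.33 CPM in Col-0 and were not tested.

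Scaled by exon length, the order of members within the leaf shifted. In Col-0 the highest level was that of CRK21, with 34.9 CPM per kb of exon, followed by CRK19 with 28.4, CRK10 with 23.1 and CRK40 with 19.6. In 35S:RPS4 CRK10 led with 83.6 CPM per kb, followed by CRK19 with 58.0, CRK12 with 44.5 and CRK40 with 40.8, and then by CRK21 with 36.3. CRK12 had 3.89 CPM per kb in Col-0. The 5 highest members made 59.0% of the summed level per kb in Col-0 and 53.2% in 35S:RPS4. With coding length in place of exon length, CRK10 again led in 35S:RPS4 and CRK21 in Col-0.

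**Figure D4:**
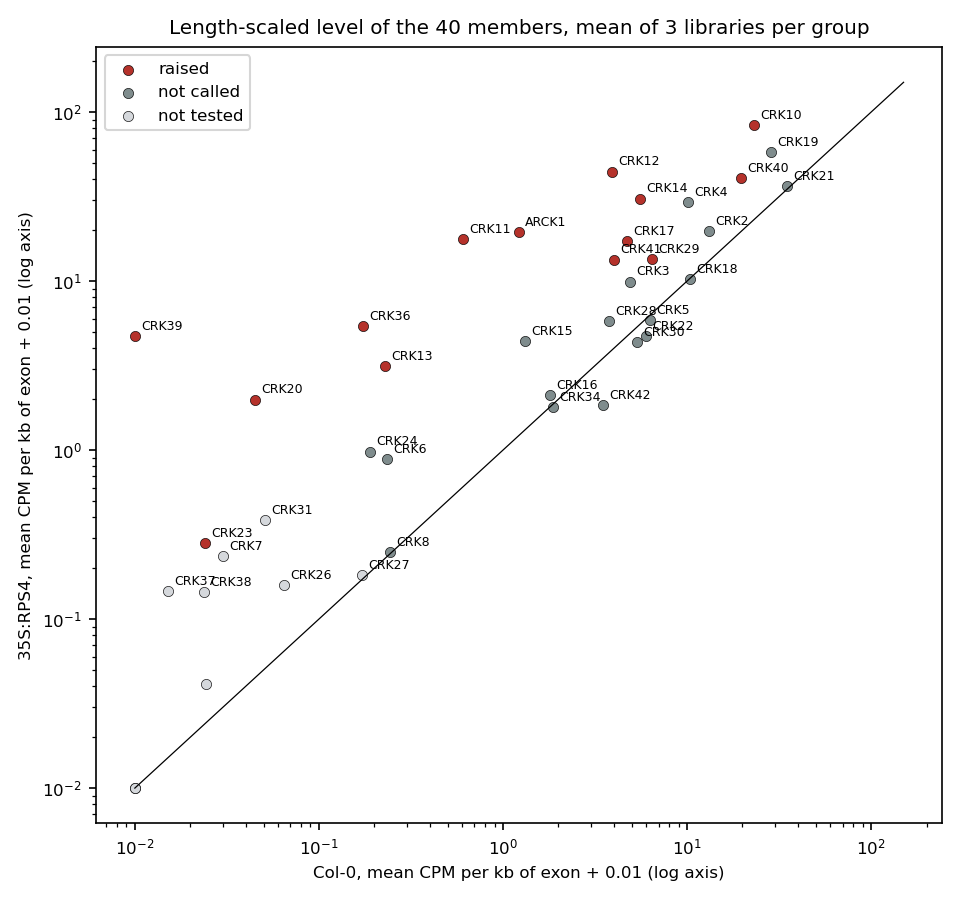
Mean level of the 40 members in 35S:RPS4 against Col-0 (3 libraries each), as CPM per kb of exon plus 0.01 on log axes, with the line of equal levels. CRK39 lies at the left edge with 0 in Col-0 and 4.73 CPM per kb in 35S:RPS4, and CRK21 lies on the line at 34.9 and 36.3.

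Within the 35S:RPS4 group, replicate 1 was the lowest for most members. It was the lowest of the 3 for 25 of the 31 tested members and for 13 of the 14 raised ones, CRK29 being the exception, with a median ratio of 0.60 to the mean of replicates 2 and 3. Over all 18382 tested genes replicate 1 was the lowest for 43.1% (median ratio 0.98), and over the 1188 raised genes for 94.5% (0.63). Among the Col-0 libraries, replicate 1 was the lowest for 19 of 31 tested members (median ratio 0.68). Over all tested genes it was the lowest of the Col-0 libraries for 38.9% (median ratio 0.997). Without both libraries of replicate 1, and with the low-count filter run anew, 21 members were raised and 1, CRK42, was lowered. The part of this library order in the calls was not tested.

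Of 8 genes listed beforehand as signalling partners of CRKs, all tested, 4 were raised. Among all tested genes 6.46% were raised, and the list was chosen with earlier results of these data known. RBOHD, the oxidase that makes the apoplastic oxidative burst, had 892, 1717 and 1705 counts in Col-0 and 11700, 24221 and 25017 in 35S:RPS4 (log2FC 3.94, SE 0.42, FDR 0.00088). The cytoplasmic kinase gene BIK1 had a log2FC of 3.29 (SE 0.25), the receptor adaptor kinase gene SOBIR1 3.01 (SE 0.32) and the co-receptor gene BAK1 1.20 (SE 0.15). The uncalled ones were the pattern receptor genes FLS2 (0.22), EFR (0.54) and CERK1 (0.52) and the second oxidase gene RBOHF (0.26). Of 4 WRKY genes, which encode regulators of salicylic acid responses and of CRK promoters, 3 were raised, WRKY40 by 8.58 (SE 0.35), WRKY18 by 3.80 (SE 0.27) and WRKY70 by 1.90 (SE 0.22), and WRKY60 had 0.93 (SE 0.57).

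Genes for other proteins with DUF26 domains gave mixed numbers, to be read beside the 6.46% of all tested genes that were raised. Of 8 genes for plasmodesmata-located proteins, which carry the domain pair but no kinase, 7 were tested and 1 was raised, PDLP7 (log2FC 1.19, SE 0.18), and the others ranged from -0.32 to 0.31. Of 46 genes annotated as kinase-less or secreted relatives, only 4 were tested and 3 were raised, namely AT5G48540 by 5.45 (SE 0.31), AT4G11521 as given above and AT3G22060 by 1.84 (SE 0.22), and EP1 was the fourth. A further CRK gene by product name, AT4G28670, had 0 CPM in both groups.

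The promoter motifs were counted over a window of 300 bases, 250 before and 50 after the start, on both strands. TTGAC occurred in 30 of 40 member promoters (75.0%) and in 50.5% of 27443 protein-coding genes. It occurred in 10 of 14 raised and 11 of 17 uncalled members, so its presence did not separate the calls. All 9 untested members held TTGAC as well and are part of the 75.0%. CGTG was found in 57.5% of member promoters and 52.7% of all, and CGCG in 4 of 40 and 13.0%. TGACG, the core bound by TGA factors of the salicylic acid pathway, occurred in 37.5% of member promoters and 23.1% of all, with 7 of 14 raised and 5 of 17 uncalled members. The letters TTGACG hold both TTGAC and TGACG and count for each, and members of an array descend from shared ancestors, so their promoters are not independent of each other.

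Reads from such similar genes can be hard to assign. Of all stretches of 50 bases in the coding exons, those found at another place in the genome made a median of 0.51% per member, under 10% in 36 members. The exceptions were CRK6 with 29.1%, CRK22 with 22.3%, CRK13 with 21.7% and CRK8 with 11.4%, and CRK20 had 7.18%, CRK39 5.13% and CRK40 5.18%. Reads with more than 1 alignment, 5.08 to 6.97% of all counts in the table, were not assigned to genes, so the levels of CRK6, CRK8, CRK13 and CRK22 are the least certain in this respect.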

How the data were processed

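Leaf polyadenylated RNA was sequenced after TruSeq RNA v2 preparation, a kit that does not mark strand. The deposited values are raw counts per gene without normalization, 1 column for each of the 6 libraries. The processing notes name TAIR10, FastQC 0.11.2, TopHat2 2.0.10 and HTSeq, with roles and settings, read length and strand setting not given in the sources used here. Summary entries that name no gene held 6.45 to 8.30% of counts per library and were left out. The labels do not say whether replicates came from separate plantings, so p-values measure only the spread between these samples.

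Counts of 35S:RPS4 were compared with Col-0 in edgeR 4.0.16 (R 4.3.3, quasi-likelihood F-test, TMM factors, low-count filter by filterByExpr, robust dispersions), with genotype as the only term and Benjamini-Hochberg adjustment over all 18382 genes tested. The call needed an FDR below 0.01 and a log2FC beyond 1 in size, the thresholds of the study. SEs are the log2FC divided by the root of F. CPM used TMM-scaled library sizes. Depth of 28659022 to 31007551 gene counts lets 0 counts over a group hide up to 3 counts (95%). Intervals and floors cover counting error only.

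Samples with the same replicate number deviated together from their group means (Pearson r across genes 0.49, 0.21 and 0.32 for numbers 1, 2 and 3). Replicates 2 and 3 correlated across numbers too (0.21 and 0.20), and pairs that joined replicate 1 to another number ran from -0.39 to -0.29. The pairing taken from the replicate numbers in the labels was used as a block, and blocked values are given where they change a call. Alternatives were other scalings, DESeq2 1.42.0, limma 3.58.1 with voom, no low-count filter, other thresholds, the replicate block, and leaving out libraries. The scripts were tested on simulated data.

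All members were named. Further genes came from lists of partners, WRKY regulators, DUF26 relatives, markers and array neighbours, each given as counts with the members of smallest FDR. The members and lists were chosen with earlier results of these data known. Coordinates, symbols and promoters came from the RefSeq annotation of TAIR10.1, whose nuclear chromosomes have the lengths of TAIR10 and in which 31912 of 32678 identifiers were found. Coding sequences were aligned globally with Biopython 1.88. Protein sequences were not used here.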

Additional observations from a re-analysis of the deposited data

How the results depend on the processing

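With limma voom 9 members were raised, 4 of them in the largest array, and without the low-count filter, when 38 members were tested, 9 and 4. Over all genes, voom raised 1047 of 18382 and the fit without the filter 1144 of 24590. Leaving out 1 library gave 4 to 19 raised, 0 to 1 lowered and 2 to 11 raised in the largest array, and leaving out both libraries of replicate 1 gave 21 raised, 1 lowered and 12 in the array. The other counts stayed within 1.5 times, with 19 raised by DESeq2, 18 at an FDR of 0.05, 18 with the replicate block, and 12 with upper-quartile scaling or plain library size. These scalings moved the median log2FC of all genes to -0.17 and -0.16. The block changed the calls of CRK3, CRK6, CRK13, CRK15, CRK19 and CRK24 and of no other member.

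The sign turned only for 5 uncalled members with values near 0. CRK5 had 0.19 with voom, 0.078 with the block and -0.59 to 0.19 without 1 library. CRK18 had 0.0048 with voom, 0.0034 with the block and -0.30 to 0.23 without 1 library. CRK8 had -0.13 with upper-quartile scaling, -0.11 with plain library size, -0.26 without both libraries of replicate 1 and -0.20 to 0.40 without 1 library. CRK21 had -0.12 and -0.11 with these scalings and -0.026 to 0.11 without 1 library, and CRK34 had -0.24 to 0.12 without 1 library. The cause was not tested. Over the 250 bases before the start alone, TTGAC was in 72.5% of member promoters and 44.9% of all, and TGACG in 32.5% and 18.6%. Depth limits CRK7, CRK20, CRK23, CRK31, CRK32, CRK37, CRK38 and CRK39, which had under 10 counts over the Col-0 libraries. CRK25 and CRK33 had 0 counts in all 6 libraries.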
